A study of Mus musculus with 6 samples.

Results

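Lovastatin was added to spermatogonial stem cell cultures that received no GDNF, and the 2 libraries of these cultures (LOVA) were compared with the 2 libraries of cultures that received neither GDNF nor drug (NTC). These are 4 of the 6 libraries of the study, chosen by their group labels, and all 16121 genes that passed a filter on low counts were tested. The 2 remaining libraries, grown with GDNF (PTC), entered the model only to estimate the spread between libraries. Per the labels, a mouse spermatogonial stem cell line was kept for 18 days on mitomycin C-treated mouse embryonic fibroblasts, a layer of feeder cells that can no longer divide. The medium of both groups was StemPro-34 with fetal bovine serum, EGF, LIF and FGF2, and LOVA cultures also held 5 uM lovastatin. Each library is bulk RNA of the whole dish, so it mixes germ cells, feeder cells and any other cell that came with them. The cells are 1 line, and nothing in the labels tells if replicate libraries stem from different dishes. All p-values therefore measure the spread between these libraries, which may be technical.

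Lovastatin is a statin, a class of drugs that block the formation of mevalonate. Mevalonate feeds the synthesis of farnesyl and geranylgeranyl diphosphate, the lipid tails of small GTPases, and, by way of squalene, of cholesterol. When sterols in the endoplasmic reticulum run low, the protein Scap carries the transcription factor SREBP2 (gene Srebf2) to the Golgi, where it is cut free to switch on nearly all genes of the pathway, while Insig1 holds Scap back when sterols are plentiful. GDNF is the niche signal that keeps spermatogonial stem cells dividing without differentiating, by binding Gfra1, which engages the kinase Ret.

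NTC A and B held 12454671 and 16573315 counts, LOVA A and B 13685015 and 12464642, where the letters are those of the deposited columns. Levels are CPM values, that is, counts divided by the TMM-adjusted size of their library, and a floor of 3 counts corresponds to 0.181 to 0.241 CPM. The germ cell markers Ddx4 (a helicase of germ granules) and Dazl (a germ cell RNA-binding protein) were present in all libraries, Ddx4 at 255 and 190 CPM in NTC and 321 and 231 CPM in LOVA, and Dazl at 552 and 322 CPM against 601 and 432 CPM. Fibroblast genes of the feeder layer took 2.11% and 3.46% of NTC counts and 1.87% and 3.47% of LOVA counts. In both groups the B library thus had the larger feeder share, and the 2 groups overlapped.

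Adding lovastatin went with higher transcripts of cholesterol synthesis and lower transcripts of macrophages, while the medians of the germ cell lists lay near 0, with signs that changed when a library was left out, as given beside each. In edgeR's quasi-likelihood test 0% of genes passed a Benjamini-Hochberg adjusted p of 0.05 in either direction, the smallest adjusted p being 0.0589. At an unadjusted p under 0.05, 1.35% of all genes were higher and 2.13% lower in LOVA. DESeq2, run as an alternative on the same counts, called 25 genes higher (0.155% of those tested) and 95 lower (0.589%). Limma-voom called 0 higher and 4 lower, and the current quasi-likelihood form of edgeR 0 higher and 12 lower. Neither called a cholesterol synthesis gene higher, while a block by column letter called 13 and the fit with no count filter 16. Both LOVA libraries lay above both NTC libraries for 12.7% of genes and below them for 13% of genes, so the members of a list are read against these shares. The lists were chosen with earlier results of these data known, so such a comparison is a description and not a test. Of the 25 genes DESeq2 called higher, 14 belonged to the sterol lists described next, and of the 95 called lower, 38 belonged to one of the lists. Some listed symbols were not found in the table and are left out, and counts below are of members that passed the filter. Members below it numbered 2 LXR targets, 4 cytokines, 4 chemokines and 1 each of the pro-apoptotic, anti-apoptotic, GDNF and undifferentiated lists, besides those of other cell types given further on.

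**Figure D1:**
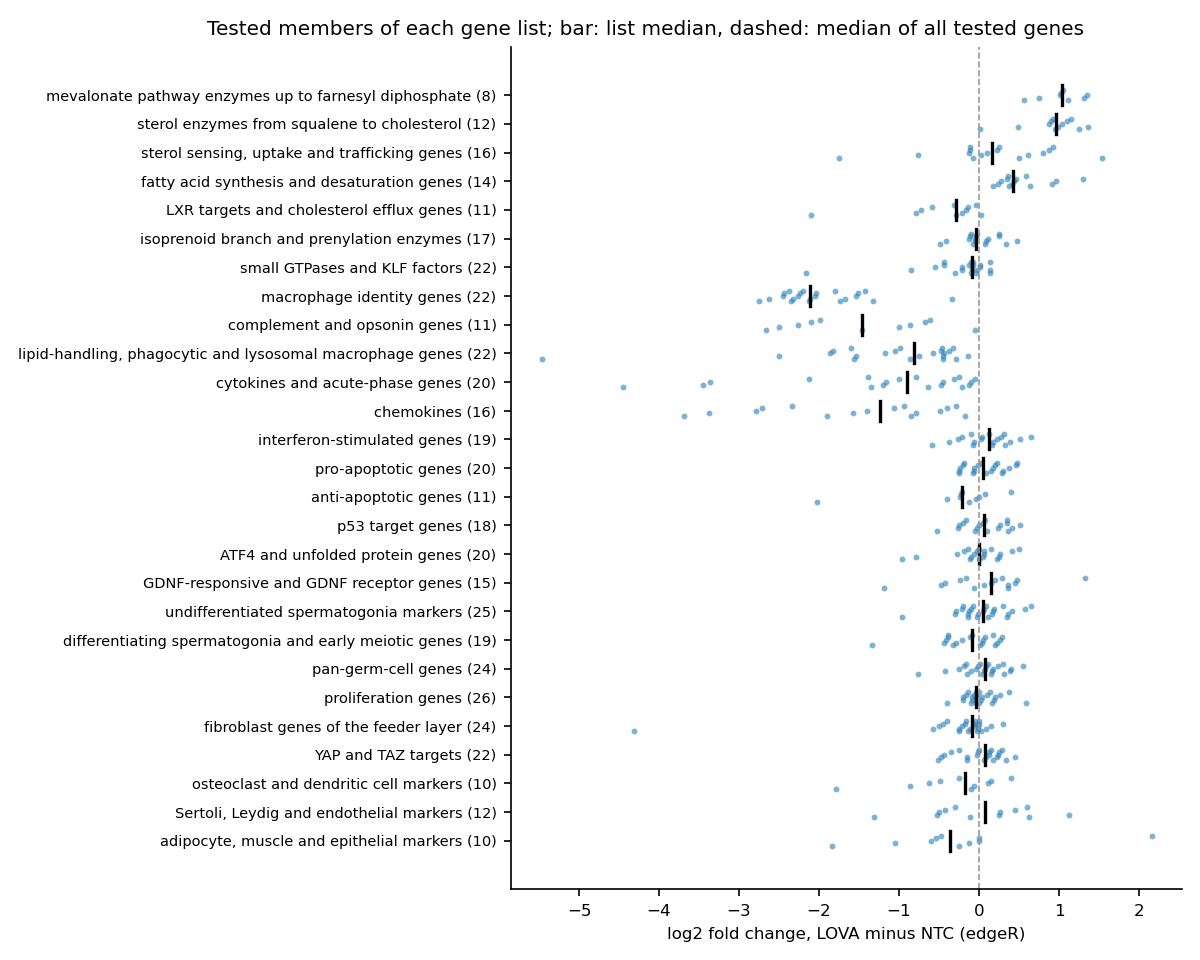
Log2 fold change of each tested list member between LOVA and NTC (horizontal axis, edgeR), by gene list (vertical axis, number of tested members in brackets); the bar is the list median and the dashed line the median of all tested genes, 0.01. Genes with no count in a whole group are not drawn as points and other blood cell markers are left out; both sterol synthesis lists lie near 1 and the macrophage identity list near -2, while the germ cell lists lie around 0.

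The promoters of 3 sterol enzymes described below and of the macrophage lysozyme Lyz2 are shown first, because these genes stand for the groups that lay higher and lower together. Each is the stretch of 250 bases before the gene's RefSeq start (GRCm38.p6), read in the gene's own direction, at chr13:119690101-119690350 (plus strand), chr13:8885356-8885605 (plus strand), chr10:76531355-76531604 (plus strand) and chr10:117282273-117282522 (minus strand). Capitals mark the CCAAT box (CCAAT, or ATTGG where it lies on the other strand), the sterol regulatory element in the form TCACNCCAC and, in Lyz2, the core AGGAAGT of the motif bound by PU.1, the macrophage transcription factor encoded by Spi1; both strands were searched and none of these motifs overlap.
Hmgcs1: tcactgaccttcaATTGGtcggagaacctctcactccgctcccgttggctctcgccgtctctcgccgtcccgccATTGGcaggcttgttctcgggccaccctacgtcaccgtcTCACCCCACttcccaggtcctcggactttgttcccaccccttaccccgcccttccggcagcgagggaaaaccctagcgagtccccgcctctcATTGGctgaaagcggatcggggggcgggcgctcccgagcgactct
Idi1: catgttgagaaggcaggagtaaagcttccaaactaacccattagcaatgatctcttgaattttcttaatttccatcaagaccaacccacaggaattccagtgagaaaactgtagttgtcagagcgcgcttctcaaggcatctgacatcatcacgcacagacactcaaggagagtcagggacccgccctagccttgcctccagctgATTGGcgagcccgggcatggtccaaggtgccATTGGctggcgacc
Lss: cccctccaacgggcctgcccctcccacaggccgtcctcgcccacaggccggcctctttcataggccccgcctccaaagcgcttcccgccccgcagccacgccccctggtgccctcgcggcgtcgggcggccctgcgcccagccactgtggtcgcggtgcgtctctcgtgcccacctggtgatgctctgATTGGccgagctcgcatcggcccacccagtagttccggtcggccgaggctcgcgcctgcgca
Lyz2: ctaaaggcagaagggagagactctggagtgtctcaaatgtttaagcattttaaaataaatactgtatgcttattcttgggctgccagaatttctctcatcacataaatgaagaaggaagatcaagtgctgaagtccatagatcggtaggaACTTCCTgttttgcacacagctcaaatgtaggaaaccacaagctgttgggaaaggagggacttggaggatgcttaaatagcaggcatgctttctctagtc
A promoter window was found for 15 of the 20 cholesterol synthesis genes and for 16 of the 22 macrophage identity genes. A CCAAT box was present in 14 of those 15 windows and in 7 of the 16, against 37.5% of all genes with a window. The sterol regulatory element in this strict form was found in 1 of the 15, Hmgcs1, against 1.22% of all genes. It was also found in 1 of the 16 macrophage windows, that of Coro1a. The PU.1 core was in 3 of the 16 macrophage genes, Lyz2, Mrc1 and Ptprc, and in 0 of the 15, against 8.8% of all genes. Of the 16 sterol sensing, uptake and trafficking genes described below, 11 had a window. Of these 11, 4 held the PU.1 core, 9 a CCAAT box and 0 the sterol regulatory element. By the GENCODE coordinates, the last parts of the Idi1, Lss and Lyz2 windows lie inside the gene, as do both CCAAT boxes of Idi1. The motif forms were chosen after counts of several forms had been seen, and a match describes letters, not binding.

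The 8 enzymes that lead from acetyl-CoA to farnesyl diphosphate were all higher in LOVA, by 0.56 to 1.35 on the log2 scale with a median of 1.04, against 0.01 for all tested genes. Idi1, the isomerase that makes the reactive isoprene unit dimethylallyl diphosphate, was at 146 and 175 CPM in NTC and at 406 and 412 CPM in LOVA. That is 2.55-fold higher (log2 fold change 1.35, SE 0.16), with an edgeR adjusted p of 0.0764 and a DESeq2 adjusted p of 4.47e-07. Mvd, the decarboxylase that makes isopentenyl diphosphate, was at 39.2 and 37.5 CPM in NTC and 110 and 80.2 CPM in LOVA (1.31, SE 0.20; edgeR adjusted p = 0.188, DESeq2 9.93e-05). In both enzymes every LOVA library stood well above every NTC library, and the gap was larger than the distance between libraries of a group. Idi1 (ENSMUSG00000058258) lies on chromosome 13 from 8885501 to 8892451 (GRCm38, GENCODE M21).

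Acat2, which joins acetyl-CoA units, was at 96.2 and 103 CPM in NTC and 231 and 176 CPM in LOVA (1.03, SE 0.18). Hmgcs1, the synthase that acts before mevalonate is formed, was at 267 and 337 CPM against 560 and 656 CPM (1.01, SE 0.18), and Fdps, which makes farnesyl diphosphate, lay at 1.05. Mvk, the mevalonate kinase, was at 20.6 and 23 CPM against 48.1 and 46.5 CPM (1.12, SE 0.21), and Pmvk, the kinase after it, at 12.3 and 10.9 CPM against 20.3 and 14 CPM (0.56, SE 0.29). Pmvk did not overlap between groups but was the single enzyme of the 8 with an unadjusted edgeR p above 0.05 and without a DESeq2 call.

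Of the 12 enzymes from squalene to cholesterol, 11 had both LOVA libraries above both NTC libraries, with a median log2 fold change of 0.96. Lss, which folds squalene epoxide into lanosterol, was at 58.7 and 57.6 CPM in NTC and 160 and 138 CPM in LOVA, 2.56-fold higher (1.36, SE 0.16; edgeR adjusted p = 0.0764, DESeq2 4.45e-08). Cyp51, which removes a methyl group from lanosterol, was at 94.3 and 139 CPM and then 277 and 276 CPM (1.25, SE 0.21). Both enzymes lay higher in each LOVA library than in either NTC library. Sqle, the squalene epoxidase and an early control point of the sterol branch, was at 125 and 130 CPM in NTC and 244 and 230 CPM in LOVA (0.89, SE 0.15; DESeq2 adjusted p = 0.00107). Msmo1 and Nsdhl, which act in the removal of further methyl groups, lay at 1.10 and 1.15, each called by DESeq2.

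The remaining sterol enzymes lay higher with more spread. Dhcr7, which makes cholesterol from its direct precursor, was at 86.4 and 87.9 CPM in NTC but at 228 and 132 CPM in LOVA, so that the LOVA libraries differed by more than LOVA B differed from NTC. Fdft1, which makes squalene and opens the sterol branch, had 113 and 132 CPM against 260 and 191 CPM (0.88, SE 0.21), Hsd17b7 lay at 0.92 and Sc5d at 0.94. These 4 had an unadjusted edgeR p under 0.05 and no DESeq2 call. Tm7sf2, a sterol reductase, lay at 0.49, and Ebp, a sterol isomerase on the X chromosome, was the exception at 14.5 and 18.3 CPM against 12.2 and 20.9 CPM (0.01, 95% interval -0.89 to 0.91). Over both lists together 19 of 20 genes did not overlap (background 12.7%), 17 had an unadjusted p under 0.05 (background 1.35%) and 13 were called by DESeq2 (background 0.155%). Their summed level was 1850 and 2121 CPM in NTC and 4211 and 3905 CPM in LOVA. Both lists were chosen with earlier results of these data known, so the backgrounds serve as description only.

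**Figure D2:**
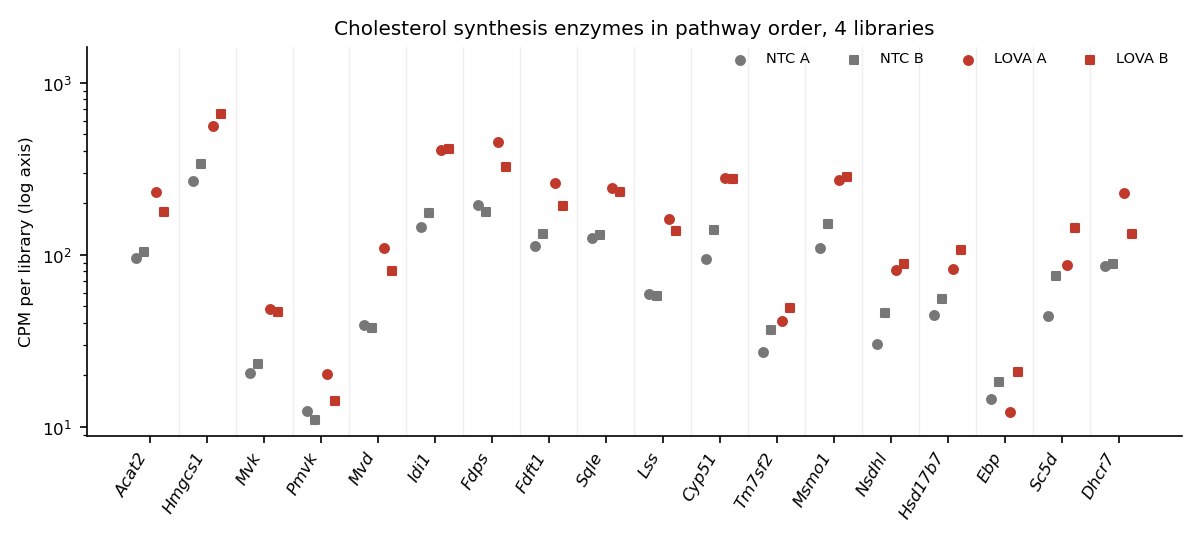
Level of cholesterol synthesis enzymes in pathway order (horizontal axis) as CPM on a log axis, with 1 point per library (grey NTC, red LOVA; circles A, squares B). The red points lie above the grey points for every gene drawn but Ebp, which overlaps.

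Genes that sense, take up and move sterols were divided. Insig1, which retains Scap in the endoplasmic reticulum, was at 220 and 261 CPM in NTC and 472 and 407 CPM in LOVA (0.87, SE 0.17), the single member of this list that DESeq2 called (adjusted p = 0.0244). Srebf2 lay at 0.61 (274 and 278 CPM against 477 and 365 CPM), Stard4, a sterol carrier, at 0.80, and Lpin1, a phosphatidate phosphatase, at 0.51.

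Mylip, a ubiquitin ligase and target of the sterol-activated receptor LXR, lay lower instead, at 22.9 and 30.8 CPM in NTC and 13 and 18.8 CPM in LOVA (-0.76, SE 0.32; edgeR adjusted p = 1). Srebf1, which encodes the fatty acid counterpart of SREBP2, differed little at 98.6 and 93.8 CPM against 103 and 93.6 CPM (0.03, 95% interval -0.34 to 0.40). Scap (0.10), Insig2 (-0.08), and the lysosomal cholesterol exporters Npc1 (-0.11) and Npc2 (-0.11) also had intervals that included 0, as did Scarb1 (0.26), Tmem97 (0.23) and Soat1 (-0.12). Npc1l1, the intestinal cholesterol importer, stayed under 1 CPM in all libraries. In all, 7 of the 16 genes were higher and 2 lower without overlap (backgrounds 12.7% and 13%), with a list median of 0.16 (0.27 without LOVA B, 0.10 without LOVA A).

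Each of the 14 fatty acid synthesis and desaturation genes lay above 0, the median was 0.43, and 8 of them did not overlap. Elovl6, which lengthens palmitate to stearate, was at 19 and 25 CPM in NTC and 40.7 and 67.9 CPM in LOVA (1.30, SE 0.31; edgeR adjusted p = 0.525). Fads2, a desaturase of polyunsaturated fatty acids, was at 32.7 and 52.1 CPM against 84.2 and 80.5 CPM (0.96, SE 0.24). Acly, which supplies cytosolic acetyl-CoA, had 516 and 508 CPM against 957 and 638 CPM (0.64, SE 0.22), and Fasn, the fatty acid synthase, 288 and 290 CPM against 435 and 352 CPM (0.44, SE 0.16). For Acly and Fasn, LOVA A stood higher than LOVA B, while Elovl6 had the opposite order. Scd1, the oleate-forming desaturase, ranged from 30.2 to 84 CPM within NTC alone and overlapped between groups (0.92, SE 0.56). By DESeq2 0 of the 14 were called and by edgeR's unadjusted p 5 were higher.

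LXR targets, the genes of cholesterol efflux, had a median of -0.28, with 4 of 11 lower without overlap and 1 called lower by DESeq2, Apoe. Apoe, the lipoprotein that macrophages secrete in quantity, was at 583 and 781 CPM in NTC and 146 and 173 CPM in LOVA (-2.09, SE 0.21; edgeR adjusted p = 0.0589). Abca1, the cholesterol exporter, was at 77.4 and 106 CPM against 49.1 and 73.2 CPM (-0.58, SE 0.25), and Nr1h3, which encodes LXR alpha, at 8.05 and 6.45 CPM against 4.13 and 4.64 CPM (-0.72, SE 0.34). Abcg1 (-0.14) and Nr1h2, which encodes LXR beta (0.03), overlapped. The macrophage share of counts, given below, moved together with Apoe, and its part in the lower level of Apoe was not tested.

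The branch that makes and attaches isoprenoid tails showed no such shift. Of its 17 enzymes 3 lay higher and 2 lower without overlap, the median was -0.04 (0.05 without LOVA A, -0.09 without LOVA B), and 14 had a 95% interval that excluded a 2-fold change in either direction, against 54.4% of all tested genes. Ggps1, which makes geranylgeranyl diphosphate, was at 46.3 and 48.1 CPM in NTC and 44.2 and 47.1 CPM in LOVA (-0.05, 95% interval -0.46 to 0.36). Rabggtb, a subunit of the enzyme that prenylates Rab proteins, lay at -0.42 (44.1 and 48.7 CPM against 36.5 and 33.1 CPM), and Chml, which presents Rab proteins to that enzyme, at 0.47. Pdss1, which starts the tail of coenzyme Q, lay at -0.49, and the abundant methyltransferase Icmt at 0.08.

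Among small GTPases and KLF factors, 6 of 22 lay lower and 1 higher without overlap, with a median of -0.09. Without LOVA B the median was -0.39 and without NTC A -0.28, and without LOVA A it was 0.03. Rac2, a GTPase of blood cells, was at 5.74 and 8.38 CPM in NTC and 1.42 and 1.72 CPM in LOVA (-2.17, SE 0.42; DESeq2 adjusted p = 0.00597), and was the single member that DESeq2 called. The macrophage genes described next were lower in the same libraries, and their part in the level of Rac2 was not tested. Klf2, a factor known to be raised by statins in endothelium, was lower here, at 16.4 and 22.9 CPM against 12.7 and 9.2 CPM (-0.84, SE 0.31; edgeR adjusted p = 1). Rhob, whose transcript statins are known to raise in many cells, was at 91.9 and 91.2 CPM against 70.5 and 65.3 CPM (-0.43, 95% interval -0.93 to 0.07). Rhoa (-0.12), Rac1 (-0.10) and Cdc42 (-0.04) overlapped, and these measurements concern transcripts, not the prenylation of the proteins.

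Macrophage identity genes were lower in both LOVA libraries than in both NTC libraries in 22 of 22 cases (background 13%). Their median log2 fold change was -2.11, the range -2.74 to -0.34, and their summed level 2180 and 2985 CPM in NTC and 489 and 642 CPM in LOVA. This list was chosen with earlier results of these data known, so the background serves as description only. In bulk RNA fewer macrophages in the dish and less of these transcripts per cell cannot be told apart. Lyz2, the lysozyme of macrophages, was the most abundant at 1552 and 2068 CPM against 333 and 437 CPM (-2.23, SE 0.22; edgeR adjusted p = 0.0589), and its near copy Lyz1 may share reads with it. Csf1r, the receptor of the survival factor of macrophages, was at 26.4 and 42.1 CPM against 5.48 and 7.05 CPM (-2.45, SE 0.40), and Spi1, which encodes PU.1, at 7.25 and 9.99 CPM against 1.57 and 2.41 CPM (-2.12, SE 0.60). Both lay several-fold lower in each LOVA library.

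The other genes of the list were lower by differing amounts. Fcgr3, an antibody receptor, lay at -2.38 (33.1 and 40.7 CPM against 6.05 and 8.17 CPM), Cd68, a lysosomal glycoprotein, at -2.04, Adgre1, the F4/80 antigen, at -1.80 and Mrc1, the mannose receptor, at -2.33. Ctss, a lysosomal protease (-2.43), Mpeg1, a pore-forming protein (-2.11), Tyrobp, a signalling adaptor (-2.63), Laptm5 (-2.19), Lcp1 (-2.26), Fcer1g (-2.35), Aif1 (-2.74) and Cd14, a receptor for bacterial lipopolysaccharide (-1.51), were called lower by DESeq2, as were Lyz2, Cd68, Fcgr3, Mrc1, Csf1r and Adgre1, 14 genes in all (background 0.589%). At an unadjusted edgeR p, 20 of the 22 were lower (background 2.13%). Genes of the list without a DESeq2 call included Ptprc (-1.73), Cybb (-1.33), Spi1, Cd53 (-1.54), Itgam (-1.42), Cx3cr1 (-2.05) and Coro1a. Coro1a, an actin regulator of leukocytes, lay closest to 0, at 7.01 and 8.06 CPM against 6.48 and 5.42 CPM (-0.34, SE 0.29).

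**Figure D3:**
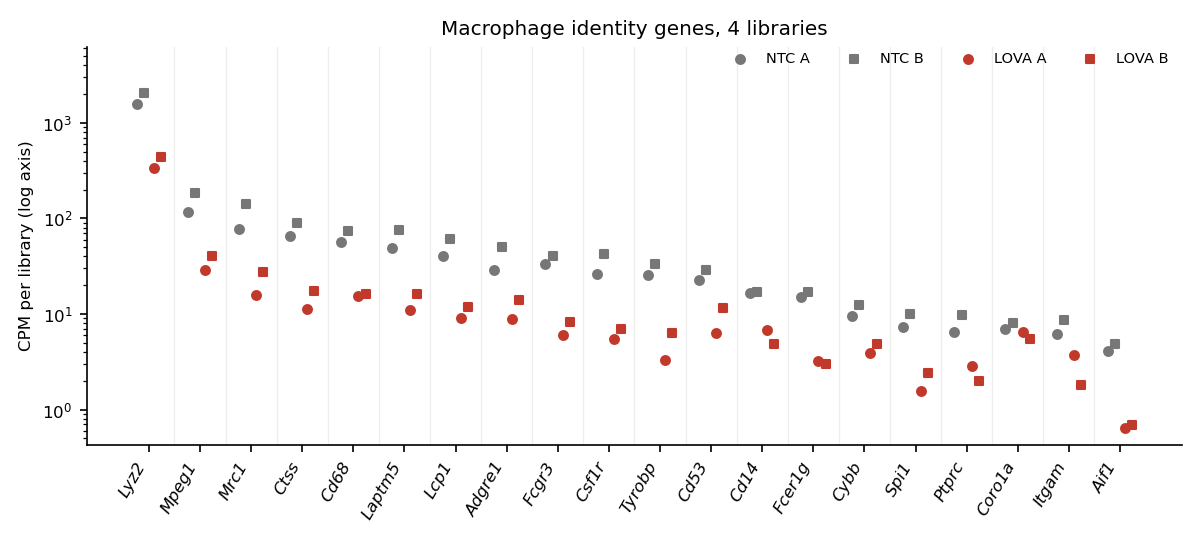
Level of macrophage identity genes (horizontal axis, ordered by their NTC mean) as CPM on a log axis, with 1 point per library (grey NTC, red LOVA; circles A, squares B). Cx3cr1, which had no count in LOVA A, is among the genes not drawn; for every gene drawn both red points lie below both grey points, with Coro1a the closest.

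Outside the lists, the lowest p-values belonged to further genes of the myeloid lineage. F13a1, the coagulation factor XIII A subunit that tissue macrophages make, was at 50.8 and 58.8 CPM in NTC and 3.06 and 1.55 CPM in LOVA. It was 23.4-fold lower (-4.55, SE 0.36), with an edgeR adjusted p of 0.0589 and a DESeq2 adjusted p of 1.24e-29. Cd5l, a secreted protein of tissue macrophages, was at 74.1 and 139 CPM against 7.69 and 12 CPM (-3.45, SE 0.38). Ms4a6d and Clec4n, both myeloid membrane proteins, lay at -2.48 and -2.47. F13a1 and Cd5l thus lay further down than any member of the identity list. F13a1 (ENSMUSG00000039109) lies on chromosome 13 from 36867178 to 37050244.

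The complement and opsonin genes had a median of -1.47 (-0.79 without NTC B), and 9 of 11 were lower without overlap. The 3 chains of C1q, the first component of the classical pathway, were lower by similar amounts. C1qb was at 78.6 and 90.7 CPM in NTC and 12.4 and 17.5 CPM in LOVA (-2.50, SE 0.24; edgeR adjusted p = 0.0589), C1qa lay at -2.26 and C1qc at -2.66. C3ar1, the receptor of the complement fragment C3a, was at 27.4 and 51.3 CPM against 8.4 and 11.4 CPM (-1.99, SE 0.36). C3 itself, which fibroblasts also make, was at 60.8 and 75.7 CPM against 30.8 and 58.8 CPM (-0.61, SE 0.32).

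Lipid-handling and phagocytic genes spanned a wide range. Trem2, a lipid receptor of macrophages, was at 35.4 and 37 CPM in NTC and 6.2 and 6.54 CPM in LOVA (-2.51, SE 0.24; edgeR adjusted p = 0.0589), with little spread in either group. Marco, a scavenger receptor, had 110 and 199 counts in NTC and 2 and 4 counts in LOVA, which makes 8.76 and 12.8 CPM against 0.142 and 0.344 CPM (-5.47, SE 0.55; edgeR adjusted p = 0.0589). Gpnmb, a glycoprotein of lipid-laden macrophages, was at 289 and 457 CPM against 94.1 and 164 CPM (-1.53, SE 0.32). Spp1, osteopontin and the most abundant member, was at 3502 and 4857 CPM against 1775 and 2820 CPM (-0.86, SE 0.38; edgeR adjusted p = 1).

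Lysosomal genes that most cells express differed less. Ctsb lay at -0.75, Ctsd at -0.47, Ctsl at -0.44, Grn at -0.29 and Cd63 at -0.32, and Grn and Cd63 overlapped between groups. Plin2, which coats lipid droplets, was at 131 and 174 CPM in NTC and 90.2 and 132 CPM in LOVA, also with overlap (-0.46, SE 0.26). Over the list of 22 genes 17 were lower without overlap, 0 higher, and 5 were called lower by DESeq2, with a median of -0.81. That median was -0.52 without LOVA A, -0.53 without NTC B and -1.32 without LOVA B.

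Cytokines and acute-phase genes were all negative in sign, with a median of -0.90 (-0.44 without LOVA A, -1.43 without LOVA B), and 12 of 20 did not overlap. Tnf was at 6.61 and 9.29 CPM in NTC and 0.214 and 0.516 CPM in LOVA, from 3 and 6 counts in the latter (-4.45, SE 0.55; edgeR adjusted p = 0.0855, DESeq2 1.77e-07). Clec4d, a C-type lectin of myeloid cells, was at 19 and 27.6 CPM against 5.48 and 5.16 CPM (-2.13, SE 0.35). Saa3, an acute-phase protein, was at 122 and 125 CPM against 34.9 and 59.1 CPM (-1.39, SE 0.30; DESeq2 adjusted p = 0.0158). Il1b had 61 counts over NTC and 0 over LOVA, and the list median was also -0.90 with Il1b at its bound, at least 18.3-fold lower if LOVA as a group held 3 counts. Il6 was at 3.27 and 4.9 CPM against 0.855 and 2.84 CPM (-1.16, SE 0.77).

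Other members of this list lay nearer to 0. Csf1, the ligand of Csf1r, was at 178 and 282 CPM in NTC and 137 and 307 CPM in LOVA (-0.05, 95% interval -1.63 to 1.53), so the spread within a group exceeded the difference. Vcam1 (-0.13) and Icam1 (-0.10), adhesion molecules, and Lif (-0.31) overlapped too. Nfkbia, an inhibitor and target of NF-kB, was at 174 and 176 CPM against 79.8 and 146 CPM (-0.63, SE 0.31), where LOVA A accounted for most of the difference.

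Of 16 chemokines 11 were lower without overlap and 7 were called lower by DESeq2, with a median of -1.23 (-1.92 without LOVA B, -0.83 without NTC B). Ccl6, made mainly by myeloid cells, was at 43.6 and 39.3 CPM in NTC and 7.76 and 8.69 CPM in LOVA (-2.33, SE 0.24; edgeR adjusted p = 0.0589). Ccl12 was at 11.6 and 13.7 CPM against 1.07 and 1.38 CPM (-3.37, SE 0.37), Ccl3 at 7.97 and 12.6 CPM against 0.498 and 1.12 CPM (-3.69, SE 0.55), and Cxcl2 at 13.9 and 11.7 CPM against 1.99 and 1.89 CPM (-2.71, SE 0.35). Ccl4, Ccl8 and Ccl9 completed the 7 at -2.79, -1.58 and -1.90. Cxcl1, a neutrophil attractant that fibroblasts make as well, was at 180 and 138 CPM against 42.2 and 78.2 CPM (-1.40, SE 0.45), and Cxcl12 (-0.39) and Ccl2 (-0.49), typical stromal chemokines, overlapped. Ccl5 ran the other way below the count filter, with 0 counts over NTC and 6 and 12 counts in LOVA.

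The macrophage genes were also set against each other by expressing each as counts per 1000 counts of the summed identity list, which held 27358 and 46294 counts in NTC and 6862 and 7460 in LOVA. On this scale Mpeg1 was at 53.4 and 61.1 in NTC and 59.2 and 63.1 in LOVA, Spi1 at 3.33 and 3.35 against 3.21 and 3.75, and Cd68 at 25.7 and 24.8 against 31.9 and 24.9, all with overlap. Of the 22 identity genes themselves 12 overlapped on this scale, 6 lay lower and 4 higher in LOVA. These genes make up the sum they are divided by, so a larger part for some means a smaller part for others. No share over all genes was computed on this scale. With Lyz2 left out of the sum, Lcp1 moved from overlap to lower. Among genes of any list or outside them, some lay lower relative to the identity list. Marco was at 4.02 and 4.30 per 1000 in NTC and 0.291 and 0.536 in LOVA, F13a1 at 23.3 and 19.7 against 6.27 and 2.41, Tnf at 3.03 and 3.11 against 0.437 and 0.804, and Cd5l at 34 and 46.7 against 15.7 and 18.6. The ratio of group means, NTC to LOVA, was 10.1 for Marco, 4.96 for F13a1, 4.95 for Tnf, 2.86 for Ccl3, 2.35 for Cd5l, 2.29 for Ccl12, 1.26 for C1qb, 1.25 for Trem2 and 0.93 for Apoe. The 4 identity genes that lay higher were Adgre1, at 13.2 and 17 per 1000 in NTC and 18.2 and 21.7 in LOVA, Cd53 at 10.5 and 9.55 against 12.8 and 18, Cybb at 4.35 and 4.17 against 8.02 and 7.51, and Coro1a at 3.22 and 2.70 against 13.3 and 8.45. Gpnmb also lay higher on this scale, at 133 and 153 against 193 and 255, as did Spp1 at 1607 and 1627 against 3632 and 4396. Without Lyz2, which made up 68% to 71.2% of the list's counts, the ratios for Marco, F13a1, Tnf, Ccl3, Cd5l and Ccl12 were 10.8, 5.33, 5.31, 3.06, 2.51 and 2.46. No test was made, since 2 libraries against 2 cannot give an exact two-sided permutation p below 0.333, and the genes were picked after their values had been seen.

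**Figure D4:**
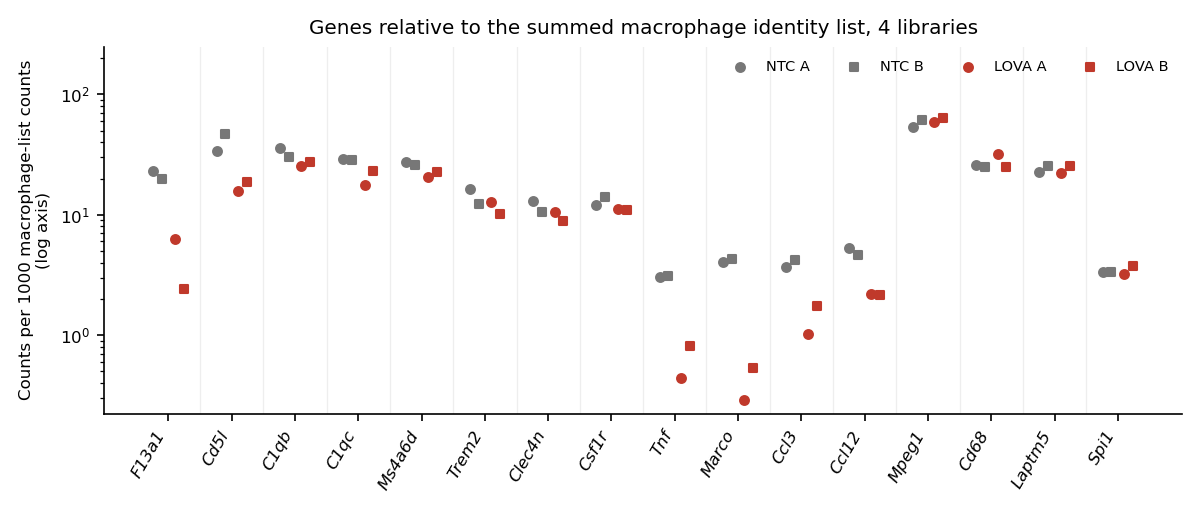
Counts of each gene (horizontal axis) per 1000 counts of the summed macrophage identity list (log axis), with 1 point per library (grey NTC, red LOVA; circles A, squares B). F13a1, Tnf, Marco, Ccl3, Ccl12 and Cd5l lie lower in LOVA also on this scale, whereas Mpeg1, Cd68, Laptm5 and Spi1 overlap. The genes drawn are a selection, and those that lie higher in LOVA on this scale, among them Adgre1, Cd53, Cybb, Coro1a, Gpnmb and Spp1, are not drawn.

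Markers of other blood cells were at or near 0. Of 19 neutrophil, mast cell, lymphocyte and erythroid markers 16 stayed below the count filter, with S100a9, Cpa3 and Cd3g at 0 counts in all 4 libraries. Osteoclast and dendritic cell markers had a median of -0.17 (-0.50 without NTC B, -0.47 without LOVA A, -0.34 without LOVA B) over 10 tested genes with 0 DESeq2 calls, and Acp5, an enzyme of osteoclasts, was at 11.6 and 7.67 CPM against 7.9 and 5.85 CPM. Fabp4, a fatty acid carrier of adipocytes and macrophages, was at 67.6 and 92.6 CPM in NTC and 29.1 and 48.4 CPM in LOVA (-1.05, SE 0.44). Sertoli, Leydig and endothelial markers had 2 genes higher and 3 lower without overlap among 12, for example Wt1, a Sertoli cell factor also found in mesenchyme, at 28 and 26.4 CPM against 20.5 and 19.9 CPM (-0.43).

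Few feeder, YAP and TAZ target or interferon-stimulated genes lay apart between the groups, but their fold changes were imprecise. The 95% interval excluded a 2-fold change for 0 of 24 fibroblast genes, against 54.4% of all tested genes. It did so for 7 of 22 YAP and TAZ targets and 6 of 19 interferon-stimulated genes. Of 24 fibroblast genes 2 were lower without overlap and 0 higher, with a median of -0.09, which was -0.73 without LOVA B, -0.49 without NTC A, 0.26 without NTC B and 0.30 without LOVA A. Timp1, an inhibitor of matrix proteases, was at 177 and 220 CPM in NTC and 119 and 173 CPM in LOVA (-0.44, SE 0.48), and Tcf21, a mesenchymal factor, had 13 and 13 counts in NTC and 0 and 1 counts in LOVA. Of 22 YAP and TAZ targets 1 was lower without overlap, Gadd45b (-0.34), and the median was 0.08 (-0.26 without LOVA B, -0.12 without NTC A, 0.29 without NTC B and 0.36 without LOVA A). Interferon-stimulated genes had a median of 0.12 (-0.58 without LOVA B, 0.49 without LOVA A), with Gbp2 at 30.3 and 32.6 CPM against 43.2 and 46.4 CPM (0.51, SE 0.22). None of these 3 lists had a DESeq2 call in either direction.

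Apoptosis is named in the design text of the study, and its genes were mixed. Of 20 pro-apoptotic genes 1 was higher and 2 lower without overlap, with a median of 0.06. Bax, which permeabilizes mitochondria, was at 174 and 186 CPM in NTC and 150 and 152 CPM in LOVA (-0.26, 95% interval -0.61 to 0.10), and Bbc3, the p53 target Puma, at 5.74 and 4.13 CPM against 6.12 and 5.85 CPM (0.28). Among 11 anti-apoptotic genes, Bcl2l1 was at 127 and 138 CPM against 109 and 115 CPM (-0.24, 95% interval -0.60 to 0.12) and Xiap, a caspase inhibitor, at 67.9 and 69.8 CPM against 73.5 and 108 CPM (0.40). The 2 genes of this list that DESeq2 called lower were Bcl2a1b (-2.02, SE 0.47) and Bcl2a1d, near copies of a gene used mainly by blood cells, between which the counting may divide reads. The p53 targets had 3 genes higher and 3 lower without overlap among 18 and a median of 0.07 (-0.19 without LOVA B, 0.27 without LOVA A, 0.19 without NTC B).

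Stress genes of the ATF4 and unfolded protein response had a median of 0.00 over 20 genes (-0.06 without LOVA B, 0.05 without LOVA A), with 1 higher and 4 lower without overlap. Atf3, an early stress factor, was at 37.8 and 48 CPM in NTC and 20.6 and 23.6 CPM in LOVA (-0.96, SE 0.28; edgeR adjusted p = 0.893). Chac1, a glutathione-degrading target of ATF4, lay at -0.78 and Sesn2, a stress-induced inhibitor of growth signalling, at 0.27. None of the 20 was called by DESeq2 in either direction.

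For germ cell self-renewal, 7 of 15 GDNF receptor and GDNF-responsive genes had a 95% interval that excluded a 2-fold change in either direction. That is 46.7%, against 54.4% of all tested genes. Of the 15, 4 were higher and 4 lower without overlap (26.7% each, against 12.7% and 13% of all genes). The list median was 0.14, with no call by edgeR or DESeq2. Without LOVA A the median was -0.12, without NTC A 0.01 and without LOVA B 0.09. Lhx1, a homeobox factor induced by GDNF, was at 0.478 and 0.322 CPM in NTC and 1.21 and 0.774 CPM in LOVA, which rests on 6, 5, 17 and 9 counts (1.32, SE 0.56; edgeR adjusted p = 1). Gfra1 was at 46.4 and 55.1 CPM against 60 and 63.9 CPM (0.29, 95% interval -0.26 to 0.83), and Etv5, a GDNF-responsive factor needed for stem cell maintenance, at 28.8 and 32.6 CPM against 36.7 and 42.4 CPM (0.36, 95% interval -0.37 to 1.10). Both lay higher in LOVA without overlap, with 95% intervals that included 0.

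Ret was at 68.3 and 54.1 CPM in NTC and 105 and 64.5 CPM in LOVA, where LOVA B lay below NTC A (0.47, 95% interval -0.23 to 1.17). Nanos2, an RNA-binding protein of the most primitive cells, was at 5.42 and 3.68 CPM against 7.55 and 4.04 CPM (0.36), Id4, a marker of stem cells, at 16.9 and 25.7 CPM against 18.1 and 29.1 CPM (0.14), and Bcl6b, a transcription factor, at 19.4 and 15.9 CPM against 23 and 13.7 CPM (0.06). Cxcr4, the receptor of Cxcl12 on stem cells and also on leukocytes, was lower, at 10.3 and 13.2 CPM against 3.35 and 6.97 CPM (-1.19, SE 0.47; edgeR adjusted p = 1). Dusp6 (-0.43), Egr2 (-0.47) and Spry4 (-0.23), which follow ERK signalling, were lower without overlap as well, each with an interval that included 0.

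Of 25 undifferentiated spermatogonia markers 1 was higher and 1 lower without overlap (4% each, against 12.7% and 13% of all genes), the adhesion receptor Adgra3 at 0.16 and the uridine phosphorylase Upp1 at -0.30. Zbtb16, the factor PLZF, was at 134 and 125 CPM in NTC and 218 and 127 CPM in LOVA (0.41, 95% interval -0.20 to 1.01), so the higher mean came from LOVA A. Lin28a, an RNA-binding protein of immature cells, lay at 0.11, and the transcription factors Sall4 and Foxo1 at 0.06 and 0.05. The list median was 0.05 (-0.35 without LOVA A, -0.04 without NTC B, 0.18 without NTC A, 0.27 without LOVA B), and -0.08 after scaling to pan-germ-cell genes, under which Lin28a, Sall4, Foxo1 and Bcl6b lay below 0. A 2-fold change was excluded by the 95% interval for 14 of the 25 (56%, against 54.4% of all tested genes).

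Differentiation genes lay at a median of -0.09 over 19 genes (-0.38 without LOVA A, -0.36 without NTC B, 0.19 without NTC A, 0.18 without LOVA B), with 2 lower and 0 higher without overlap, Crabp1, a retinoic acid carrier, at -0.21 and Prdm9, which marks recombination sites, at -0.38. Kit, the receptor that marks differentiating spermatogonia, was at 56.5 and 44.6 CPM in NTC and 48.3 and 32.6 CPM in LOVA (-0.32, 95% interval -1.17 to 0.53), and Stra8, which retinoic acid induces before meiosis, at 80.1 and 44.8 CPM against 64 and 38.3 CPM (-0.29, 95% interval -1.67 to 1.09). In both genes the A library was the higher of each group. Dmrtb1, a regulator of the entry into meiosis, was the lowest at 20.8 and 8.38 CPM against 8.55 and 2.84 CPM (-1.34, SE 0.60) and overlapped.

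Of 24 pan-germ-cell genes 1 was higher without overlap, Tex15 (172 and 122 CPM against 196 and 189 CPM, 0.39), and 1 lower, Piwil4 (-0.42), both of the piRNA silencing pathway. Ddx4 and Dazl, given above, lay at 0.31 and 0.24 with overlap. The list took 0.342% and 0.226% of NTC counts and 0.403% and 0.218% of LOVA counts, and its median of 0.07 was -0.43 without LOVA A, -0.15 without NTC B, 0.37 without NTC A and 0.43 without LOVA B. Of 26 proliferation genes 2 were higher without overlap and 0 lower, Cenpe and the cyclin Ccne1 (0.13), with a median of -0.03 (-0.47 without LOVA A, -0.29 without NTC B, 0.29 without NTC A, 0.32 without LOVA B). Cenpe, a motor of chromosome alignment, was at 51.9 and 35.1 CPM against 64.8 and 65.4 CPM (0.58, 95% interval -0.05 to 1.22), and Top2a, an enzyme that untangles DNA, at 282 and 214 CPM against 306 and 261 CPM (0.19). A 2-fold change was excluded by the interval for 21 of the 26 proliferation genes (80.8%, against 54.4% of all tested genes).

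**Figure D5:**
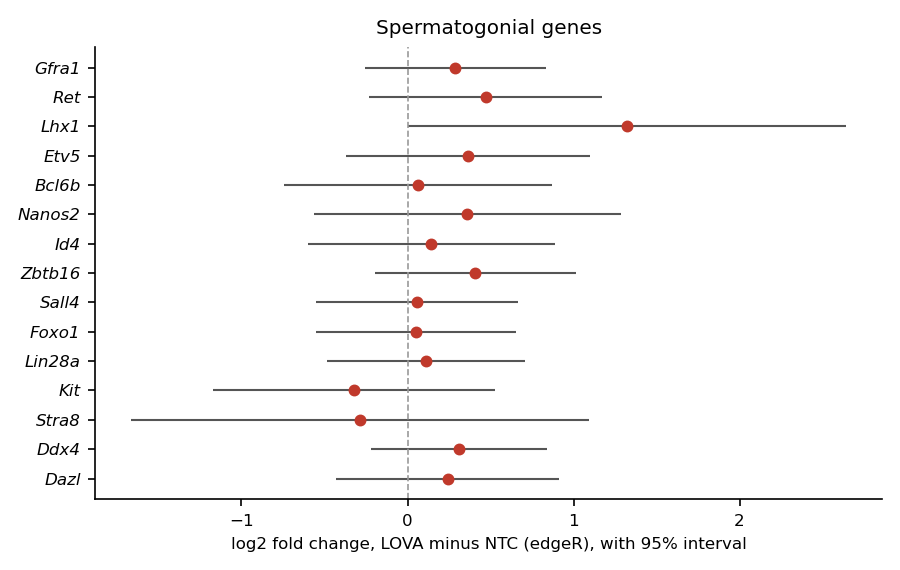
Log2 fold change between LOVA and NTC (horizontal axis, edgeR) with its 95% interval for genes of self-renewal, differentiation and germ cell identity (vertical axis). Each interval but that of Lhx1, whose lower end lies at 0.00, includes 0.

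Higher in LOVA by the ranking rule was also Zfp229, a zinc finger gene, at 12.2 and 7.93 CPM in NTC and 36.7 and 30.3 CPM in LOVA (1.74, SE 0.30; edgeR adjusted p = 0.242, DESeq2 1.12e-04). It was the single gene among the 12 higher genes of that rule that belongs to no sterol list. Zfp229 is one of a large family of similar zinc finger genes, so reads may be shared with relatives.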

How the data were processed

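RNA of 6 libraries in 3 groups of 2 was sequenced as paired reads, from a strand-marking kit per the labels' protocols. The authors deposited whole-number counts per gene. The submitters' processing notes name Trimmomatic, Bowtie2, RSEM and DESeq2 and the mm10 build, without roles or versions; the use of strand in counting is not given in the sources used here. Of 31384 genes, 31363 were matched to GENCODE M21 (GRCm38) for symbols and coordinates. The table holds no mitochondrially encoded genes.

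Counts of all 6 libraries were filtered (filterByExpr), scaled by TMM and fitted with edgeR 4.0.16 in R 4.3.3 (quasi-likelihood, robust), with 3 residual degrees of freedom and a median standard error of 0.30 (log2). LOVA minus NTC was tested and p-values were adjusted over 16121 genes by Benjamini-Hochberg. DESeq2 1.42.0 and limma 3.58.1 were alternatives, with other scaling, filters, a block and left-out libraries. The fit was also run on simulated counts with less spread between libraries than these, so that run does not show how well changes are found here. Intervals at 95% come from the edgeR standard errors. The members and gene lists were chosen with earlier results of these data known. Genes named are the 12 of smallest p in each direction with a mean of at least 5 CPM and no overlap (no predicted genes), all members of the mevalonate, sterol, SREBP and macrophage lists, of each other list the 3 of smallest p and the most abundant, and a set of spermatogonial genes; further names were chosen after their values were seen. Some genes of the lists are counted but not reported by name here.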

Additional observations from a re-analysis of the deposited data

How the results depend on the processing

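The alternatives tried were DESeq2, limma-voom, the current quasi-likelihood form, RLE and upper-quartile scaling, scaling to pan-germ-cell genes, no count filter, a mean of at least 10 CPM, the LOVA and NTC libraries only, a block and leaving out each library. Where a library was left out, the lone library of its group was assumed to vary like those of the other groups. The causes of these differences were not tested. The 0 genes called by edgeR became 25 higher and 95 lower with DESeq2, 4 lower with limma-voom, 12 lower with the current quasi-likelihood form, and 44 higher and 147 lower with no count filter. With a replicate block by column letter, 18 were higher and 72 lower at an adjusted p under 0.05, 479 and 574 at an unadjusted p, and Ebp lay at -0.025. Same-lettered libraries of the 2 groups deviated together (r = 0.544 over genes), but the labels do not tie letters across groups and there are only 2 such pairs, so the libraries were not treated as paired. Of the 90 blocked calls, 81 were also among the 120 DESeq2 calls. The 217 higher and 344 lower genes at an unadjusted p became 352 and 576 with no filter and 103 and 112 with the stricter filter, and the higher ones became 63 with germ-cell scaling and 125 with the LOVA and NTC libraries only. Genes without overlap numbered 1086 higher and 1236 lower with the stricter filter, where fewer genes are tested, and 711 higher with germ-cell scaling. Under that scaling the median of all genes was -0.06, and 16 cholesterol and 21 macrophage genes did not overlap.

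Leaving out 1 library gave 0 to 2 called lower (2 without LOVA A, 1 without LOVA B), 141 to 608 higher and 222 to 761 lower at an unadjusted p (141 and 222 without NTC B, 608 and 761 without LOVA A, 388 and 533 without LOVA B), and 3948 to 6006 higher and 4712 to 6271 lower without overlap, where a group of 1 overlaps less often by construction. The cholesterol median ranged from 0.86 (without NTC A) to 1.09, and the macrophage median from -2.40 to -1.85. Several values near 0 changed sign. The pro-apoptotic median ranged from -0.019 to 0.078 and was -0.053 with the stricter filter, the GDNF list median ranged from -0.12 to 0.13, and that of other blood cell markers from -0.38 to 0, with 0 also under no filter. The median of small GTPases and KLF factors ranged from -0.39 to 0.035 and that of the isoprenoid branch from -0.093 to 0.048. The medians of the germ cell, proliferation, fibroblast, interferon, YAP, p53 and ATF4 lists changed sign as well, with the values given beside them. Log2 fold changes with a library left out ranged from -0.37 to 0.39 for Bcl6b, -0.36 to 0.37 for Foxo1, -0.29 to 0.42 for Lin28a, -0.37 to 0.39 for Sall4, -0.037 to 0.75 for Zbtb16, -0.17 to 0.74 for Nanos2, -0.24 to 0.48 for Id4, -0.71 to 0.17 for Stra8 and -0.096 to 0.65 for Dazl. They ranged from -0.42 to 0.35 for Ebp, -0.043 to 0.095 for Srebf1, -0.45 to 0.21 for Insig2, -0.37 to 0.17 for Npc1, -0.33 to 0.081 for Npc2, -0.39 to 0.15 for Soat1, -0.11 to 0.49 for Tmem97, -0.31 to 0.017 for Abcg1, -0.080 to 0.12 for Nr1h2, -0.29 to 0.074 for Rac1, -0.28 to 0.0089 for Rhoa and -0.23 to 0.12 for Cdc42. They also ranged from -1.38 to 0.062 for Ccl2, -0.75 to 0.41 for Csf1, -0.43 to 0.17 for Icam1, -0.64 to 0.073 for Lif and -0.84 to 0.35 for Vcam1. Germ-cell scaling put Bcl6b at -0.068, Foxo1 at -0.078, Lin28a at -0.023, Sall4 at -0.076, Nr1h2 at -0.013 and Srebf1 at -0.038. Ebp lay at -0.059 with limma-voom, -0.0016 with upper-quartile scaling, -0.012 with no filter and -0.0069 with the stricter filter.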

Other observations

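DESeq2 called 11 genes higher and 57 lower in LOVA that belong to none of the lists, and the genes named here were chosen after their values were seen. Among the higher ones, 3 long noncoding RNA genes stood at high levels. Gm30948 was at 212 and 128 CPM in NTC and 946 and 439 CPM in LOVA, Gm38246 at 155 and 104 CPM against 671 and 303 CPM, and Gm49116 at 24.2 and 13.3 CPM against 108 and 47.3 CPM. In all 3, LOVA A was higher than LOVA B, and both were above NTC. Their transcripts resemble each other, with 91.7% identity over 1508 bases for Gm30948 and Gm38246 and 96.8% over 282 bases for Gm38246 and Gm49116, and how reads shared by them were counted is not given in the sources used here.

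Among the lower genes outside the lists were further genes of leukocytes. Fcgr2b, an inhibitory antibody receptor, lay at -2.55, Itgb2, a leukocyte integrin, at -2.18 and Ccr1, a chemokine receptor, at -2.82 on the log2 scale.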
